A study of Mus musculus with 6 samples.

Results

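Osteoblasts signal to osteoclast precursors mainly through RANKL (gene Tnfsf11), osteoprotegerin (gene Tnfrsf11b) and M-CSF (gene Csf1), and the transcripts of these genes were followed in MC3T3-E1 cells with and without metformin. The members were the rows of the deposited table that carry these gene names, which gave 3 genes of 54532. MC3T3-E1 is a mouse pre-osteoblast cell line, so all samples come from 1 line, and metformin is an oral drug for type 2 diabetes. All cells were kept for 3 days in osteogenic medium, which contains ascorbic acid, β-glycerophosphate and the glucocorticoid dexamethasone, and 1 group of 3 samples received nothing else (osteogenic medium) while the other 3 samples also received 0.2 mM metformin. The dose and time were taken from the text of the study, because the sample labels give neither, and the labels name no litter, day or batch. The sample titles name the groups only as nc and met. That both were in osteogenic medium was read from the study, which sequenced osteogenic induction with and without metformin. The cultures were of this line alone, without osteoclasts or their precursors.

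RANKL is a membrane-bound or shed cytokine of the tumor necrosis factor family, and it drives osteoclast formation when it binds its receptor RANK on monocyte-lineage precursors. Osteoprotegerin is a secreted decoy receptor that binds RANKL and keeps it from RANK, so the ratio of both is a common measure of how far osteoblasts favour bone resorption. M-CSF, made in secreted and membrane-bound forms, acts through the receptor Csf1r and keeps these precursors alive and dividing. Dexamethasone, vitamin D and parathyroid hormone are known regulators of RANKL and osteoprotegerin in osteoblasts.

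The stretch of 250 bases before the start of the gene is shown for Tnfsf11 and Csf1, the members with a promoter entry in the RefSeq set used. Whether its motifs bear on the levels of these genes was not tested. The sequences are those of RefSeq on build GRCm38.p6, where 2 of the 3 members matched, and both run 5′ to 3′ on the minus strand, at chr14:78308044-78308293 for Tnfsf11 and at chr3:107760470-107760719 for Csf1. Capitals mark TATAA (the TATA box core), GGGCGG (the GC box core) and TGANTCA (the AP-1 site), searched on both strands.
Tnfsf11: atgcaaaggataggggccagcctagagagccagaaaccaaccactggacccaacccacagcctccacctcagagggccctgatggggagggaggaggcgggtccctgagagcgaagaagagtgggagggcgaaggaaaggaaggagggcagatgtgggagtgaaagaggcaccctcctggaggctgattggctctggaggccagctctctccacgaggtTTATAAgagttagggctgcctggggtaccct
Csf1: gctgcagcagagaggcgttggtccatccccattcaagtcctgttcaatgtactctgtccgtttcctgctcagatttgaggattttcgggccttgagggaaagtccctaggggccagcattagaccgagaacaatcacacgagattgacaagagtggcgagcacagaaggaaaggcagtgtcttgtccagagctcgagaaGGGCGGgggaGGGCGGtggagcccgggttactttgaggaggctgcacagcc
The Tnfsf11 stretch held TTATAA, in which TATAA and its reverse complement overlap, 31 bases before the start, and no GGGCGG. The Csf1 stretch held GGGCGG at 51 and at 41 bases before the start and no TATAA. The AP-1 site was in neither. Over 32851 RefSeq promoters of the same length, 22.8% held TATAA, 32.7% held GGGCGG and 6.75% held TGANTCA. CpG dinucleotides numbered 4 in the Tnfsf11 stretch and 10 in that of Csf1, where the median promoter had 6.

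RNA sequencing gave 18399861 to 20652437 reads per sample in osteogenic medium and 19256672 to 22111790 with metformin, as recovered from the deposited values. These values are FPKM, the reads of a gene scaled to its length and to the library. Control replicate 1 stood apart: its log2 values had Pearson correlations of 0.96 and 0.952 with the other controls, which had 0.988 with each other, and its deviation from their mean had a Spearman correlation of -0.668 with GC content across the tested genes, which are not independent replicates. The same measure was 0.411 and 0.635 for control replicates 2 and 3, each set against a mean that includes replicate 1, and -0.224 to 0.127 for the metformin samples. Values that rest on this sample are given with and without it. The osteoblast label was read against marker genes: all 9 osteoblast markers passed the limit of a mean of 0.5 FPKM, with Col1a1 at 927 to 1580 FPKM and Spp1 at 6570 to 8360 in osteogenic medium. Alpl, at 2.73 to 3.84 FPKM, and Bglap, at 2.22 to 12.3 in osteogenic medium, were far lower. Bglap has near-identical transcripts in Bglap2 and Bglap3, so its reads could be split. Chondrocyte markers were read as well: 4 of 6 passed the same limit, with Sox9 at 20.2 to 28.1 FPKM and Col2a1 at 6.44 to 11.9 in osteogenic medium. Of the 6 adipocyte markers, 1 passed it, Fabp4. Of the 10 osteoclast markers, Acp5, Calcr and Tnfrsf11a had no read in any sample, and of the 9 macrophage markers Itgam and Tyrobp had none. The summed level of these 2 lists was 255 to 281 FPKM (osteoclast, nearly all of it Ctsk) and 11.9 to 14.1 (macrophage, most of it Cd14) in osteogenic medium, and 154 to 168 and 9.0 to 10.6 with metformin. The part of all such markers in the results was not tested.

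Of the 3 members, Csf1 was higher with metformin, Tnfrsf11b was not called in either direction, and Tnfsf11 was too low to test. Both groups of 3 entered a limma-trend fit of log2(FPKM + 1), which covered the 12681 genes whose mean reached 0.5 FPKM and adjusted p-values by Benjamini-Hochberg. Of the genes tested 13.2% were higher and 9.28% lower at an adjusted p-value under 0.05, which is the background for the count of 1 higher and 0 lower among the 2 members tested. A correction for GC content changed that background to 2062 higher and 2434 lower genes, from 1670 and 1177. With 1 of the 2 tested members not overlapping between the groups, the share over all genes tested was 44.1% in either direction. In these bulk samples, fewer cells that make a transcript and less of it per cell cannot be told apart.

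**Figure D1:**
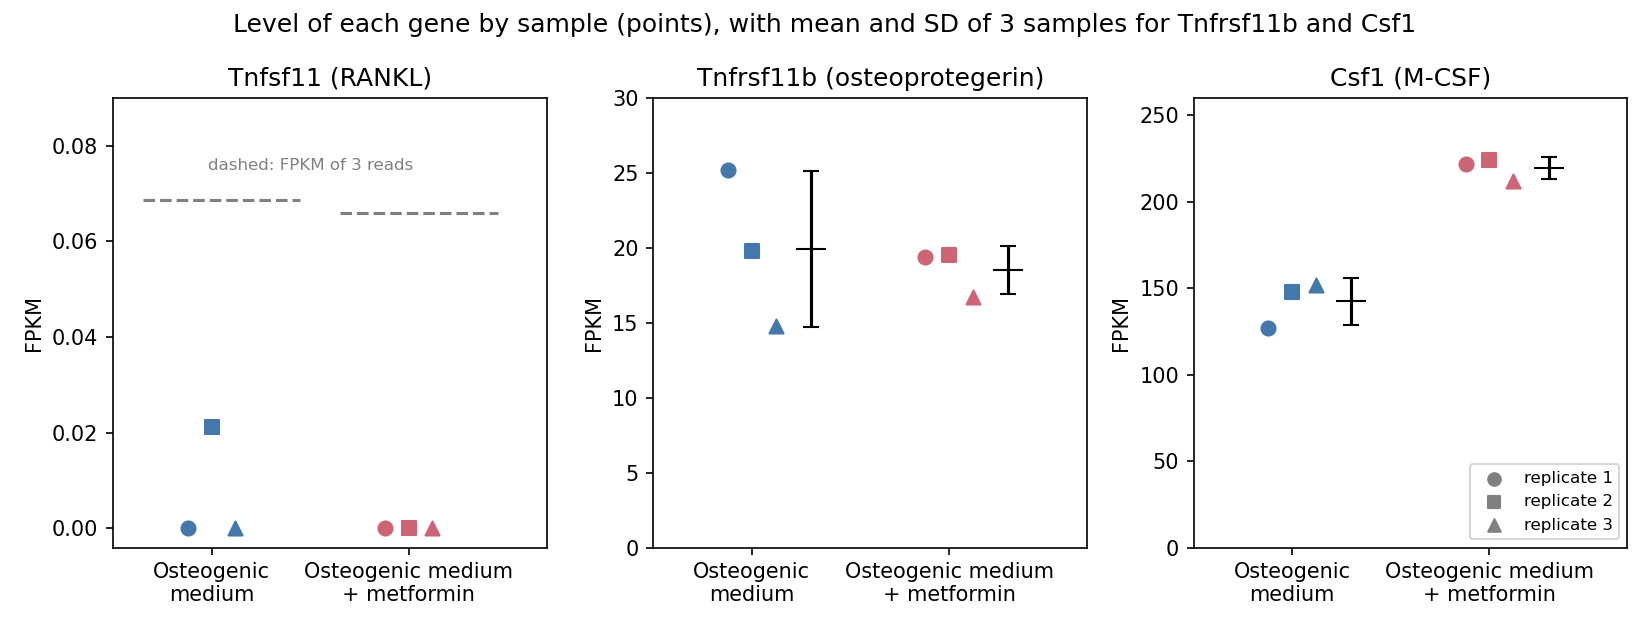
FPKM of Tnfsf11, Tnfrsf11b and Csf1 in each of the 3 samples in osteogenic medium (blue) and the 3 with metformin (red), with the replicate number as the symbol and the mean ± SD as black bars for Tnfrsf11b and Csf1, each panel on its own scale. Csf1 sits between 212 and 224 FPKM with metformin, above every control, Tnfrsf11b overlaps between the groups, and Tnfsf11 lies below the level of 3 reads (dashed, mean of each group) in all samples.

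Tnfsf11, the RANKL gene (ENSMUSG00000022015, chromosome 14, 78277445 to 78308043, minus strand), had 1 read in control replicate 2 and no read in the other 5 samples. That 1 read, worth 0.0213 FPKM, stands against 119109716 reads over all 6 samples, and the exact Poisson interval of a count of 1 is 0.0253 to 5.57 reads at 95%. A count of 0 allows up to 3 reads, which is 0.0735 FPKM in control replicate 1, 0.0683 in control replicate 3, and 0.0676, 0.0616 and 0.0689 FPKM in metformin replicates 1, 2 and 3, and all such limits cover counting error only. In control replicate 2 the interval of the 1 read reaches 0.119 FPKM. The RANKL transcript thus had at most 1 read in every sample. The limit was 3 reads at a count of 0, a fixed floor, and 5.57 at a count of 1, the end of a two-sided interval. These limits are not of the same kind. No fold change can be given. In a fit with no limit on low values, where limma warned that its variance estimate is unreliable because most genes do not vary, the gene was not called (adjusted p = 0.919 by limma-trend). Of the 22046 protein-coding genes in the table, 31.1% had at most 1 read over all samples, as Tnfsf11 did. The gene overlaps no other gene and has no near-identical transcript in GENCODE M21, and its listed length, 2236 bases, equals the sum of its 5 exons.

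Tnfrsf11b, the osteoprotegerin gene (ENSMUSG00000063727, chromosome 15, 54250619 to 54278484, minus strand), was well read in every library, with 821 to 1296 reads. Its levels were 25.2, 19.8 and 14.8 FPKM in control replicates 1, 2 and 3 and 19.4, 19.5 and 16.7 FPKM in metformin replicates 1, 2 and 3. The controls span the metformin samples on both sides, and the highest and the lowest of the 6 values are both controls. The control mean was 19.9 ± 5.18 FPKM (SD, n = 3) and the metformin mean 18.5 ± 1.59 FPKM (SD, n = 3). The log2 fold change was -0.072 with a standard error of 0.19 (limma-trend, adjusted p = 0.816). The 95% interval of the fold, 0.70 to 1.29, leaves room for a change of either sign, so the 2 groups were not shown to be alike. The sign itself depended on control replicate 1, the sample with the highest value: without it the log2 fold change was 0.10, and without control replicate 3, the lowest, it was -0.26, neither past the threshold (adjusted p = 0.545 and 0.227). Corrected for GC content, which is 42.9% for this gene, the log2 fold change was -0.10.

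Csf1, the M-CSF gene (ENSMUSG00000014599, chromosome 3, 107741048 to 107760469, minus strand), was the most abundant of the members and rose with metformin. Its levels were 127, 148 and 152 FPKM in control replicates 1, 2 and 3 and 222, 224 and 212 FPKM in metformin replicates 1, 2 and 3. All 3 metformin samples lay above all 3 controls, as they did for 23.6% of the genes tested. The control mean was 142 ± 13.7 FPKM and the metformin mean 219 ± 6.42 FPKM (SD, n = 3 each). This was a rise of 0.63 on the log2 scale, or 1.54-fold (standard error 0.10, 95% interval 0.38 to 0.87, limma-trend adjusted p = 0.00656). Among all genes tested, 8.32% had a larger log2 fold change. Without control replicate 1, the lowest control, the rise was 0.54 (adjusted p = 0.000754), and corrected for GC content it was 0.58. The rise passed the threshold in each of the 14 alternative fits, with adjusted p-values of 0.000754 to 0.0456 by limma. The largest of these was reached without metformin replicate 1, and the fit blocked by replicate number gave an adjusted p of 0.033. The 14 fits include that with no limit on low values, where limma warned that its variance estimate is unreliable.

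**Figure D2:**
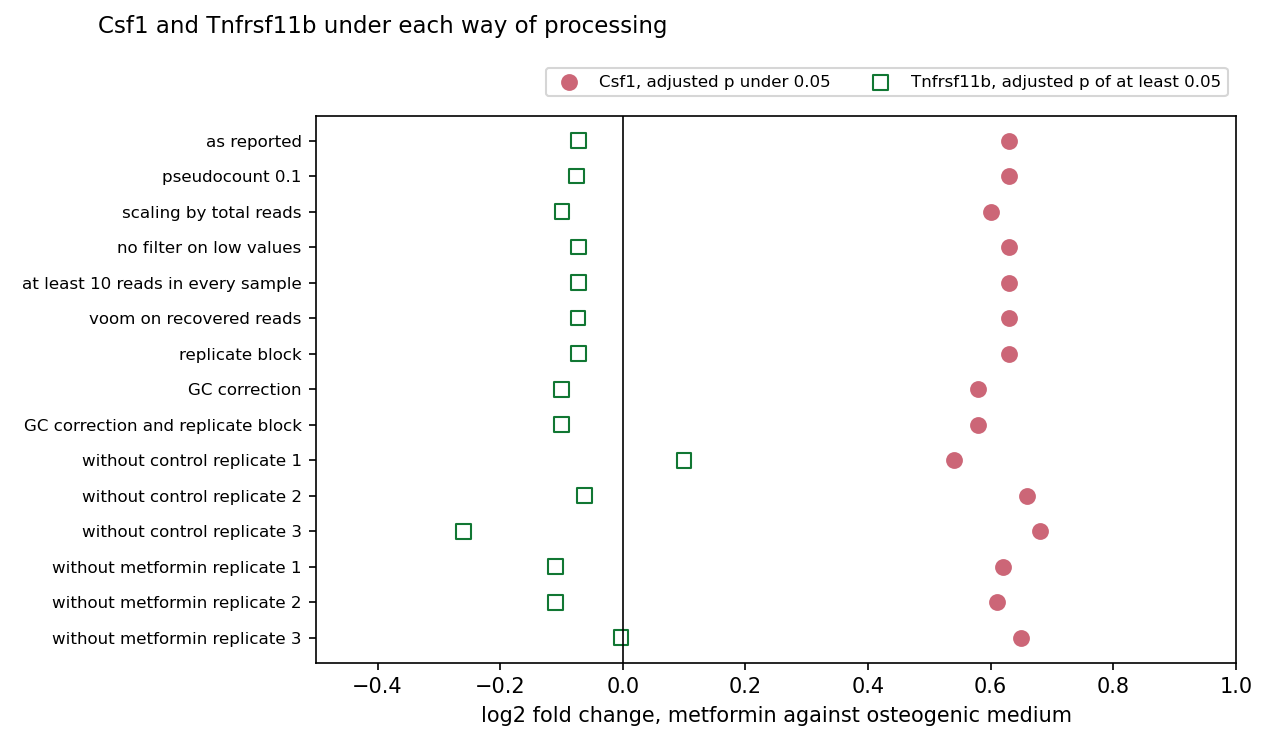
Log2 fold change of Csf1 (circles) and Tnfrsf11b (squares), metformin against osteogenic medium, as reported and in 14 alternative fits, filled where the adjusted p-value is under 0.05 and open where it is not. Csf1 stays between 0.54 and 0.68 and Tnfrsf11b between -0.26 and 0.10, on the positive side of 0 only without control replicate 1.

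M-CSF exists as secreted and membrane-bound products of 1 gene, and the table gives 1 row for the gene, so the products could not be told apart. GENCODE M21 lists 7 transcripts of Csf1, of which 6 are protein-coding, and 1 transcript each for Tnfsf11 and Tnfrsf11b. The lengths that the deposited table lists for Csf1 (5281 bases) and Tnfrsf11b (2818 bases) equal the union of all their exons in GENCODE M21. Neither gene overlaps another gene or has a near-identical transcript elsewhere.

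The order of the 3 genes was the same in all 6 samples: Csf1 had the highest FPKM, Tnfrsf11b followed and Tnfsf11 came last. Of the genes tested, 202 had a higher mean than Csf1 and 2671 had a higher mean than Tnfrsf11b. The ratio of RANKL to osteoprotegerin could be bounded only from 1 side in the 5 samples without a Tnfsf11 read. Taking 3 reads per library as the floor, Tnfrsf11b was at least 343-fold and 217-fold higher than Tnfsf11 in control replicates 1 and 3. The same bounds with metformin were at least 288-fold, 317-fold and 243-fold higher in replicates 1, 2 and 3. Control replicate 2, with its 1 read, gave a ratio of 929, and the interval of that read puts the ratio between 167 and 36700. The lower end of that interval uses 5.57 reads where the bounds above use 3, so they cannot be set against each other. The bounds of both groups overlap, and they follow the level of Tnfrsf11b and the depth of the library, not a measured level of Tnfsf11.

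A ratio per sample needed a pseudocount, since 5 samples were at 0. With 1 FPKM added to both genes, log2 of Tnfsf11 over Tnfrsf11b was -4.71, -4.35 and -3.98 in control replicates 1, 2 and 3 and -4.35, -4.36 and -4.15 in metformin replicates 1, 2 and 3. The group means were -4.35 in osteogenic medium and -4.29 with metformin, a difference of 0.062 (two-sided exact permutation test, 3 against 3, p = 1.0, where the smallest possible p is 0.1). Such a ratio carries little more than the level of Tnfrsf11b with its sign turned. Its difference was -0.018 with 0.1 FPKM added in place of 1, -0.12 without control replicate 1 and -0.0074 without metformin replicate 3, so no direction can be read from it.

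**Figure D3:**
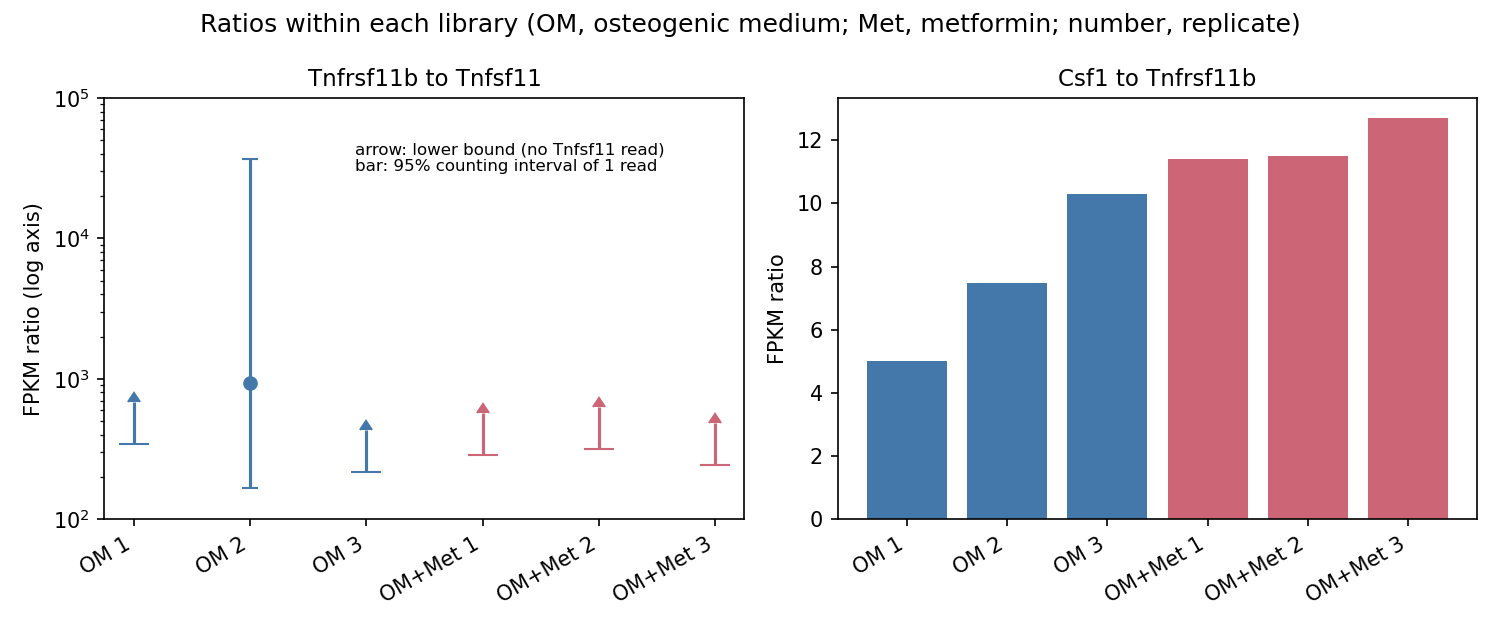
Left, ratio of Tnfrsf11b to Tnfsf11 FPKM in each library on a log axis, as a lower bound where Tnfsf11 had no read (arrow) and with the 95% counting interval where it had 1 read (bar). Right, ratio of Csf1 to Tnfrsf11b FPKM in each library, which is 5.02 to 10.3 in osteogenic medium and 11.4 to 12.7 with metformin.

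The ratio of the 2 detectable signals, M-CSF to osteoprotegerin, was examined after its values were seen. Csf1 was 5.02, 7.47 and 10.3 times as abundant as Tnfrsf11b per length in control replicates 1, 2 and 3, and 11.4, 11.5 and 12.7 times in metformin replicates 1, 2 and 3. The groups did not overlap, and the mean ratio was 7.58 ± 2.62 in the controls against 11.9 ± 0.714 in the metformin samples (SD, n = 3 each). On the log2 scale the ratio was 0.70 higher with metformin (two-sided exact permutation test, 3 against 3, p = 0.1, the smallest this design allows). A ratio within a library does not depend on how the library was scaled. It can still carry the GC trend of a library, as GC content is 54.4% for Csf1 and 42.9% for Tnfrsf11b. No GC-corrected version of this ratio was computed, so the part of GC content in it was not tested. The ratio also depends on control replicate 1, without which the difference was 0.44.

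The genes whose pattern over the 6 samples was most like that of Csf1 were Esyt1, Tkt and Ostf1, by the Pearson correlation of log2(FPKM + 1). Their correlations with Csf1 were 0.9994, 0.9993 and 0.9992, and 1402 tested genes reached 0.9 or more, over samples that share the same group difference. Esyt1, a protein of contacts between the endoplasmic reticulum and the plasma membrane, went from 14.4 to 17.5 FPKM in the controls to 26.2 to 28.0 with metformin. Tkt, the pentose phosphate enzyme transketolase, went from 9.02 to 12.7 FPKM in the controls to 22.1 to 24.4 with metformin. For Tnfrsf11b the closest genes were Armc10 (0.9957), Gm15050 (0.9918) and Dph5 (0.9897), and none of these 3 was called.

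The partners of RANKL and osteoprotegerin were mostly absent or not called. Tnfrsf11a, which encodes RANK, had no read in any sample, and Tnfsf10, which encodes TRAIL, another ligand of osteoprotegerin, had 1 to 9 reads. Of 8 genes of this axis 5 were tested, 0 were higher and 0 lower, and the median log2 fold change was 0.17 against 0.0053 over all genes tested. Lgr4, a second receptor of RANKL, had 9.02 to 12.7 FPKM in osteogenic medium and 11.4 to 12.5 with metformin. Of the proteases that can shed RANKL from the membrane, Mmp14 had 155 to 209 FPKM in osteogenic medium and 143 to 150 with metformin (adjusted p = 0.141), and Adam10 had 22.2 to 35.4 and 39.9 to 40.8 (adjusted p = 0.0588, by limma-trend). Adam17, another such protease, had 7.37 to 9.18 FPKM and 9.59 to 10.2 (adjusted p = 0.0969 by limma-trend). The groups do not overlap for any of the 3 proteases, as for 44.1% of all genes tested, but none passed the threshold. Without control replicate 1, 4 of the 5 genes passed, Lgr4, Mmp14, Adam10 and Adam17, so the count of 0 rests on that sample. Calls rose over all 12681 genes tested as well, to 2969 higher and 2590 lower, from 1670 and 1177.

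The other genes of the M-CSF axis were low. Csf1r, the receptor of M-CSF and a macrophage marker, had 1 to 8 reads in a sample, and Csf2 and Csf3, which encode the granulocyte-macrophage and granulocyte colony stimulating factors, had none. Il34, which encodes the other ligand of Csf1r, was the only gene of the 4 with enough reads to test. It had 4.61, 8.69 and 7.45 FPKM in control replicates 1, 2 and 3 and 4.32, 4.47 and 4.30 FPKM in metformin replicates 1, 2 and 3. Every metformin value lay below every control, as for 20.5% of the genes tested and by a small margin for control replicate 1, and the log2 fold change of -0.52 did not pass (adjusted p = 0.105 by limma-trend). Without control replicate 1 it was -0.75 and passed, with an adjusted p of 0.000623 by limma-trend. Il34 shares exon positions with Gm15894 and Gm15895, and the strand setting of the counting is not given in the sources used here.

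Of 16 other factors by which osteoblasts favour osteoclast formation or recruit precursors, 12 were tested, 5 were higher and 1 was lower, where 13.2% of all genes tested were higher and 9.28% lower. The median log2 fold change of the 12 was 0.39, against 0.0053 over all genes tested. Ptgs2, the inducible enzyme of prostaglandin synthesis, had the largest rise of the list and did not overlap between the groups, with 2.14, 1.46 and 1.60 FPKM in control replicates 1, 2 and 3 and 26.0, 22.0 and 22.9 FPKM in metformin replicates 1, 2 and 3 (log2 fold change 3.18). Of the 4 chemokine genes, which attract monocytes and their precursors, 3 rose, Ccl2 from 0.329 ± 0.0329 to 3.68 ± 0.423 FPKM (log2 fold change 1.81, adjusted p = 0.000112), Ccl7 from 0.583 ± 0.449 to 2.43 ± 0.519 (1.15, adjusted p = 0.0141) and Cxcl12 from 28.1 ± 2.5 to 41.7 ± 1.55 (0.56, adjusted p = 0.00711, limma-trend). Ccl5, the other chemokine gene, had 0.57 to 1.39 FPKM in the controls and 1.0 to 1.44 with metformin and was not called (adjusted p = 0.523 by limma-trend). The call of Ccl7, which had as few as 2 reads in a control, was lost without metformin replicate 1 or 2. Lif, a cytokine of the interleukin-6 family, went from 2.54 ± 0.384 to 6.50 ± 0.57 FPKM (limma-trend, log2 fold change 1.08, adjusted p = 0.0009). Mmp13, the collagenase of osteoblasts, was the gene called lower with all samples, from 531 ± 68.9 FPKM to 199 ± 4.55, a log2 fold change of -1.40. Il6 itself had 0.373 to 0.586 FPKM in osteogenic medium and 0.737 to 1.47 with metformin (adjusted p = 0.0691 by limma-trend), and Tnf had no read. With control replicate 1 left out, the log2 fold change of Il6 was 0.52 and passed (adjusted p = 0.0473 by limma-trend). Sphk1 went the other way, lower and past the threshold in that fit (adjusted p = 0.00125 by limma-trend). With all samples it did not pass (log2 fold change -0.36, adjusted p = 0.171 by limma-trend). Leaving out that control also raised the calls over all genes tested, to 2969 higher and 2590 lower.

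Of 9 factors that restrain osteoclast formation, 5 were tested, 2 were higher and 0 were lower, against 13.2% and 9.28% of all genes tested. The median log2 fold change of the 5 was 0.43, against 0.0053 over all genes tested. Wnt4, a ligand that restrains osteoclast formation, went from 5.04 ± 0.78 FPKM to 10.6 ± 0.452 (SD, n = 3 each), a log2 fold change of 0.95 (adjusted p = 0.0016 by limma-trend). Il18, a cytokine, went from 2.99 ± 0.149 to 4.39 ± 0.605 FPKM, and its call (limma-trend, adjusted p = 0.0294) survived in 2 of 6 leave-one-out fits and was lost with the replicate block (adjusted p = 0.0637). Sema3a, a secreted inhibitor of osteoclast formation, had 3.49 to 6.72 FPKM in osteogenic medium and 7.52 to 7.93 with metformin, without passing the threshold (adjusted p = 0.0628). With control replicate 1 left out, its log2 fold change was 0.86 and passed (adjusted p = 0.000301 by limma-trend). Tgfb1 had 22.9 to 50.2 FPKM in osteogenic medium and 25.9 to 27.9 with metformin (log2 fold change -0.46, adjusted p = 0.281 by limma-trend). Without control replicate 1 it was lower and passed (adjusted p = 0.000271 by limma-trend). The count of genes called in either direction was 4 without control replicate 1. It was 1 without control replicate 2, metformin replicate 1 or metformin replicate 3. Over all genes tested, leaving out control replicate 1 gave 2969 higher and 2590 lower, against 1670 and 1177 with it. Genes from this list and from the list of favouring factors were both among the higher genes, and the difference between the lists was not tested.

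**Figure D4:**
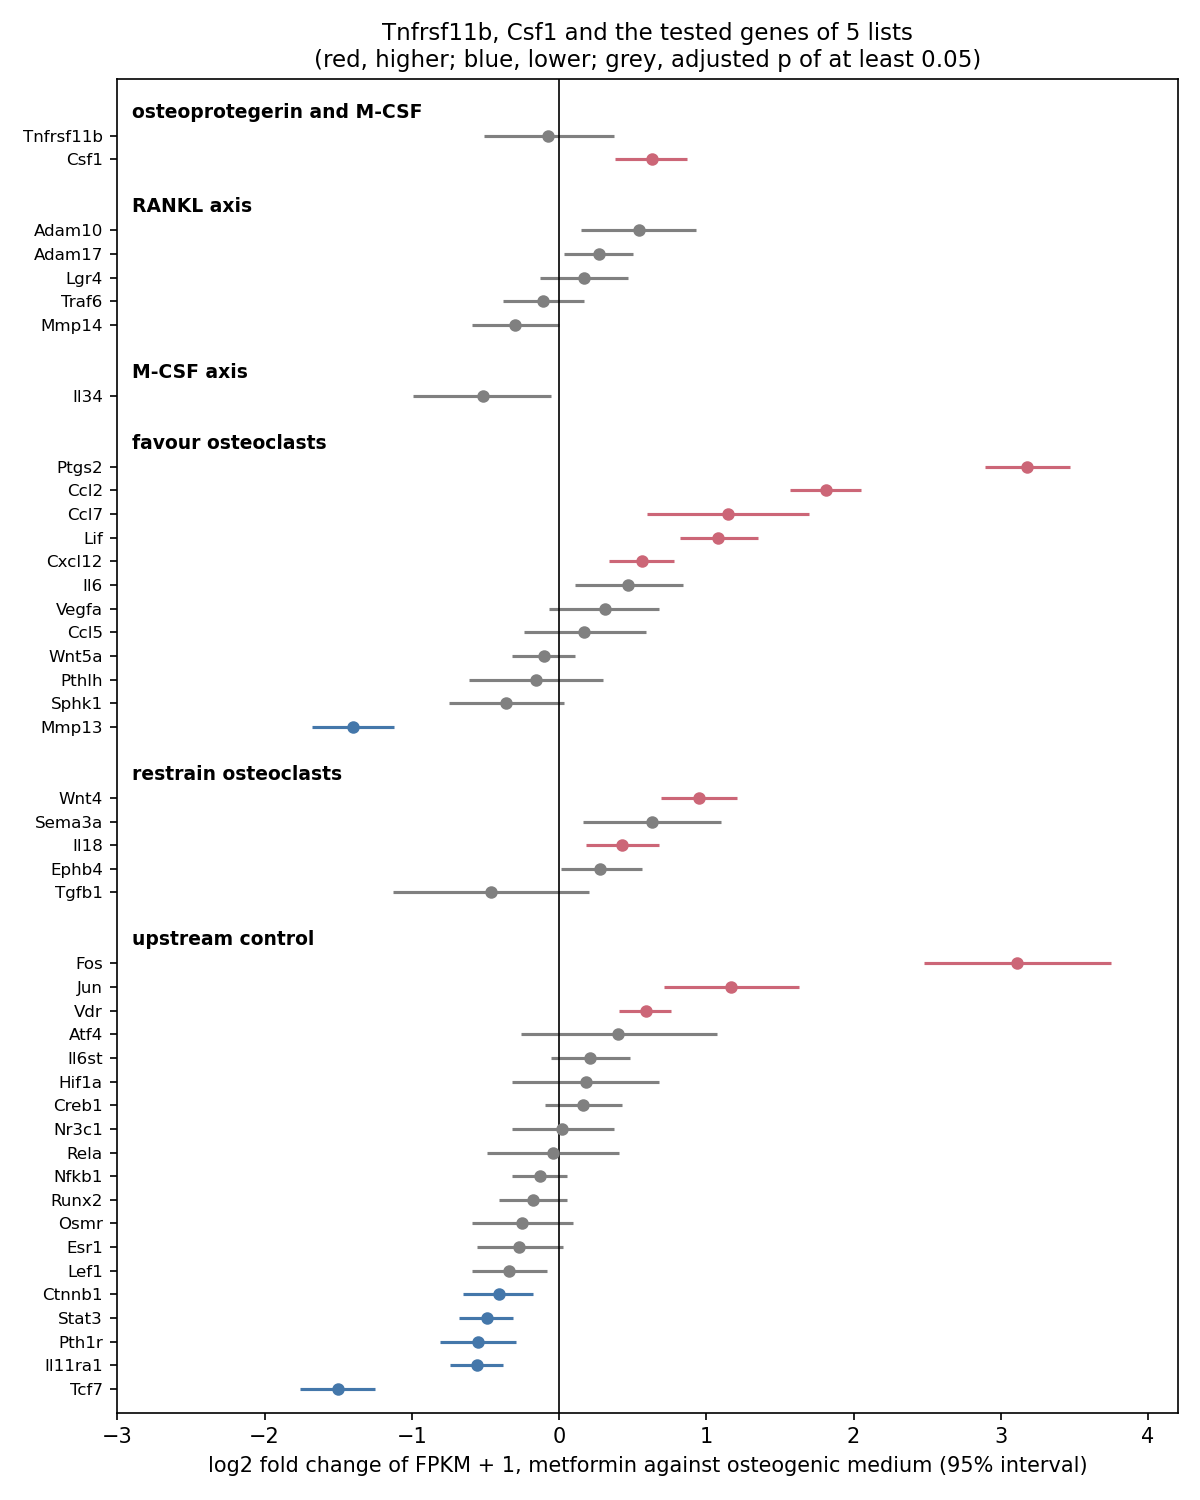
Log2 fold change of FPKM + 1 with its 95% interval for Tnfrsf11b, Csf1 and every tested gene of the 5 lists, metformin against osteogenic medium. Csf1 at 0.63 lies among the moderate rises, below Ptgs2 at 3.18 and Fos at 3.11, and Tnfrsf11b at -0.072 has an interval that crosses 0.

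Of 23 receptors and transcription factors known to act on these 3 genes, 19 were tested, 3 were higher and 5 lower, with a median log2 fold change of -0.13. The share of higher genes is near the 13.2% over all genes tested, and that of lower genes is above the 9.28%. These differences were not tested. The receptors through which hormones raise RANKL moved in opposite directions: Vdr, the vitamin D receptor, rose from 8.51 ± 0.18 FPKM to 13.3 ± 0.321 (log2 fold change 0.59, adjusted p = 0.00204), and Pth1r, the receptor of parathyroid hormone, fell from 136 ± 16.6 to 92.2 ± 1.56 (-0.55, adjusted p = 0.0133, limma-trend). Il11ra1, a receptor of interleukin-11, fell by 0.56 on the log2 scale, and Stat3, the factor that acts downstream of such receptors, fell by 0.49. Of the Wnt effectors, which are known to favour osteoprotegerin, Tcf7 fell from 13.6 ± 1.57 FPKM to 4.13 ± 0.348 (log2 fold change -1.50, adjusted p = 0.00024) and Ctnnb1, which encodes β-catenin, fell from 215 ± 20.2 to 161 ± 4.79 (adjusted p = 0.0275). Fos and Jun, which encode subunits of AP-1, rose by 3.11 and 1.17 on the log2 scale, Fos from 6.92 to 15.1 FPKM in the controls to 86.0 to 118 with metformin. Nr3c1, the glucocorticoid receptor through which the dexamethasone of the medium acts, had 12.2 to 17.7 FPKM in osteogenic medium and 13.6 to 14.6 with metformin and was not called. With control replicate 1 left out, Nr3c1 was higher and passed (adjusted p = 0.0403 by limma-trend). The calls of Pth1r and Ctnnb1 were lost without any 1 of the metformin replicates, and that of Ctnnb1 was lost with the replicate block (adjusted p = 0.0952). Leaving out control replicate 1 gave 14 called genes in this list. Over all genes tested it gave 2969 higher and 2590 lower, against 1670 and 1177 with that sample. Several genes of the list share exon positions with others, among them Pth1r with Myl3, Stat3 with Stat5a, Ctnnb1 with Ulk4 and Jun with Junos, and Il11ra1 has a near-identical copy, Il11ra2, so their reads could be split.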

How the data were processed

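RNA sequencing of MC3T3-E1 cells was analysed from 1 table that the authors deposited. Its 6 sample columns, which name no unit, were matched to samples by their labels. The authors divided reads by gene length and an effective library size, so the deposited values are FPKM. Multiplied by gene length, 100% of the values above 0 were whole multiples (within 0.01) of the size of 1 read in that sample, which gave back the reads. The gene length, in base pairs, is also as deposited. The submitters' processing notes name Bowtie 0.12.2, mm8 and mm9, while 53499 of 54532 genes in the table have the coordinates of GENCODE M21 (GRCm38). The counting tool and its strand setting are not given in the sources used here.

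Groups were compared with limma 3.58.1 (trend) in R 4.3.3 on log2(FPKM + 1), leaving out genes whose mean FPKM was below 0.5, a scale that understates fold changes at low levels. P-values were Benjamini-Hochberg adjusted with a threshold of 0.05, and measure only the spread between samples that the labels call replicates. No pair of replicates agreed within counting noise (median chi-square per gene at least 1.14, where counting gives 0.455). Near-identical transcripts were sought with BLAST+ 2.17.0 (95% identity over 200 bases). Fits were tested on simulated data. The counts simulated for limma-trend had the same spread in every library, no GC trend and no outlying sample. They therefore do not cover a sample such as control replicate 1. The fits were repeated leaving out each sample, with the replicate block, with a GC correction (a spline with 5 degrees of freedom per library), with voom on the recovered reads, with a requirement of 10 reads in every sample or none at all, with total reads as the scale, and with 0.1 as the pseudocount. The genes named are the 3 members, genes of 5 lists and of the marker lists, and the 3 genes closest to each tested member. The members and lists were chosen with earlier results of these data known. RefSeq and GENCODE gave the sequences and annotation, and Python 3.11.15 the permutation tests.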

Additional observations from a re-analysis of the deposited data

How the results depend on the processing

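The rise of Csf1 kept its direction and its call in all 14 alternatives, and Tnfrsf11b was called in none of them. These include the fit with no limit on low values, which has an unreliable variance estimate. Leaving out 1 sample at a time gave 0.54 to 0.68 for the log2 fold change of Csf1, -0.26 to 0.10 for Tnfrsf11b and -0.12 to 0.24 for the log2 ratio of Tnfsf11 to Tnfrsf11b (reported 0.062), which was -0.018 with a pseudocount of 0.1, chosen after seeing the data. The ratio was -0.0074 without metformin replicate 3, and the causes of these sign changes were not tested. No fold of Tnfsf11 was computed under any alternative, because no sample had more than 1 read of it, and in the GC-corrected ratio only Tnfrsf11b was corrected. The ratio has no library scaling, filter or voom version.

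Lower genes were 1177 as reported, 698 with the replicate block, 2434 with the GC correction and 1890 with both, and 495 to 2590 when 1 sample was left out. Higher genes were 1670 as reported, 1161 with the replicate block and 938 to 2969 when 1 sample was left out. The GC correction moved all log2 fold changes by a median of -0.0542. Same-numbered samples did not deviate together (correlations across genes of -0.053, 0.00027 and -0.055), so the block rests on the numbers alone, and Csf1 kept its call under it (adjusted p = 0.033).

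Genes called in the RANKL axis were 0, but 1 with at least 10 reads in every sample, 1 with voom, 2 with the GC correction, 1 with that correction and the replicate block, and 0 to 4 without 1 sample. In the M-CSF axis they were 0, but 1 with the GC correction, 1 with that correction and the block, and 0 to 1 without 1 sample. Factors that restrain osteoclasts gave 2, but 1 with the replicate block and 1 to 4 without 1 sample. Factors that favour them gave 6, and 5 to 8 without 1 sample. Upstream genes gave 8, and 6 to 14. The highest counts of higher genes, of lower genes and of the RANKL axis, restraining and upstream lists came without control replicate 1. The favouring list also gave 8 with the GC correction, and the causes were not tested.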

Other observations

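Some genes best known from osteoclasts were read in these cells although RANK, Acp5 and Calcr had no read. Of the 10 osteoclast markers 3 were tested, and all 3 fell with metformin, where 9.28% of all genes tested were lower. Ctsk, the collagen-degrading protease cathepsin K, fell from 259 ± 14.8 FPKM to 155 ± 6.5 (SD, n = 3 each), a log2 fold change of -0.74 (adjusted p = 0.00205 by limma-trend). Itgb3, an integrin subunit, fell from 9.87 ± 1.03 to 5.24 ± 0.493 FPKM, and Atp6v0d2, a subunit of the vacuolar proton pump, fell from 1.56 ± 0.108 to 0.209 ± 0.0419. Mmp9, below the limit for testing, had 0 to 3 reads in a control and 20 to 29 reads with metformin. Of the macrophage markers, Itgam and Tyrobp had no read, and Cd68 fell from 2.04 ± 0.0955 to 1.17 ± 0.119 FPKM.

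All 9 osteoblast markers were tested, and 2 rose, 2 fell and 5 did not pass the threshold, where 13.2% of all genes tested were higher and 9.28% lower. Among these 5 were Bglap and Bglap2, which encode osteocalcin. Bglap had 2.22, 12.3 and 9.55 FPKM in control replicates 1, 2 and 3 and 5.06, 6.31 and 4.73 with metformin. Bglap2 had 9.65, 19.9 and 12.6 FPKM against 9.31, 10.5 and 6.76. In both, the groups overlap only through control replicate 1, so these genes were not shown to be unchanged. They have near-identical transcripts, with each other and with Bglap3, so their reads could be split. Col1a1 and Col1a2, the chains of type I collagen, rose by 0.93 and 0.57 on the log2 scale. The call of Col1a1 was lost without metformin replicate 1, 2 or 3, and that of Col1a2 without replicate 1 or 2. Spp1 and Ibsp, the lower osteoblast markers, and Dmp1 of the osteocyte list, which encode secreted phosphoproteins of bone, had log2 fold changes of -1.50, -1.60 and -0.97.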
